A study of Homo sapiens with 36 samples.

Results

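The 10 chemokine and chemokine receptor genes CXCL1, CXCL2, CXCL3, CXCL5, CXCL8, CXCL16, CCL20, CCL22, CXCR4 and ACKR3 were followed in Caco-2 and HT-29, both of them cell lines from human colorectal tumours. They were found by gene symbol in the mRNA count table, which listed 60591 genes, and all 10 were present. The table held 18 libraries in 6 groups of 3, namely control, CoCl2 and oxyquinoline derivative (OD, "Oxy" in the labels) in each line. Caco-2 cells had been kept under differentiating conditions for 21 days and are called dCaco-2 here, since the line then takes on features of absorptive enterocytes. HT-29 cells were grown in another medium with no such step, so line, medium and culture state cannot be told apart in any comparison between the lines. CoCl2 was given at 300 µM and OD at 5 µM, each for 24 h, and control cells were kept with 0.5 µl of the solvent DMSO per ml of medium, the amount that also came with OD. The sample labels give water as the solvent of the CoCl2 stock. The study's methods, which describe Caco-2 and not HT-29, give a larger DMSO share than the labels and also add it to the CoCl2 medium. Whether the solvent contributed to the CoCl2 values was not tested. Both agents are used as chemical activators of hypoxia-inducible factor (HIF), and the comparisons ask how the genes of this family responded to them in each line. The CoCl2 and OD comparisons within a line shared the same 3 control libraries.

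Chemokines are small secreted proteins that guide leukocytes along a gradient by acting on G protein-coupled receptors. CXCL1, CXCL2, CXCL3, CXCL5 and CXCL8 carry the ELR motif and attract neutrophils through CXCR2, with CXCL8 (interleukin 8) also using CXCR1. CCL20 attracts CCR6-bearing lymphocytes and dendritic cells to the gut epithelium, CCL22 acts on CCR4 of regulatory and helper T cells and is best known from macrophages and dendritic cells, and CXCL16 is made as a membrane-bound ligand of CXCR6 that proteases can release. CXCR4 is the signalling receptor of CXCL12, and ACKR3 binds the same ligand but does not couple to G proteins and removes it from the surroundings. Several of these ligand genes are classic targets of NF-κB, and CXCR4 is a known HIF target in many cell types.

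The libraries held from 12925719 to 22332639 counts. Levels are given in CPM, read counts relative to a library size that was scaled within each line (TMM scaling of edgeR), and a floor of 3 counts was 0.113 to 0.250 CPM. A call required a false discovery rate (FDR) below 0.05 together with a log2 fold change beyond 1 in either direction. Scaling by library size alone shifted the median gene, from a log2 fold change of -0.03 to one of -0.35 for CoCl2 in dCaco-2, from -0.02 to -0.18 for OD in dCaco-2, from -0.03 to -0.66 for CoCl2 in HT-29 and from 0.01 to -0.13 for OD in HT-29. The share of calls that were higher moved with it, from 39.1% to 19.7%, from 37.9% to 23.3%, from 42.1% to 17.2% and from 55.7% to 43.4%, respectively. It moved from 44.7% to 28.3% for CoCl2 against OD in dCaco-2, from 36% to 12.9% in HT-29, and from 36% to 23.2% for the line difference in the CoCl2 response. Of 8 epithelial markers, 7 or 8 exceeded 1 CPM in each group, with summed levels of 4650 to 7984 CPM. Single markers went both ways. In HT-29, CoCl2 lowered VIL1 (mean of 205 to 33.6 CPM), CDX2 and CDX1, OD lowered VIL1 (to 92.5 CPM), and both raised KRT20. In dCaco-2, KRT8 and KRT18 were called higher with CoCl2 and KRT20 with OD. VIL1, at 796 CPM in dCaco-2 controls and 443 CPM with CoCl2, was not called. The 12 leukocyte markers summed to 4.27 to 13.95 CPM in 5 groups and to 21.9 to 23.0 CPM in OD-treated HT-29 cells, where ITGAM alone gave 18.6 to 20.7 CPM and PTPRC, the pan-leukocyte marker, was at 0. The 9 mesenchymal and endothelial markers summed to 91.6 to 106 CPM in dCaco-2 controls and to 33.6 to 44.4 CPM in treated dCaco-2 cells, with PDGFRB at a mean of 53.9, 3.10 and 12.6 CPM in control, CoCl2 and OD, and to at most 8.04 CPM in HT-29.

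In the untreated lines different members of the family led. In such bulk libraries, fewer expressing cells and less RNA per cell cannot be told apart. Per kilobase of exon, CXCL16 was the leading member in dCaco-2 controls with 16.6 ± 0.788 RPKM (SD, n = 3), followed by ACKR3 with 5.92 ± 0.0616 RPKM. CXCL2 with 1.10 ± 0.299 RPKM and CCL20 with 1.02 ± 0.209 RPKM came next and did not differ beyond their spread, nor did CXCL3 with 0.454 ± 0.106 RPKM and CXCL1 with 0.452 ± 0.225 RPKM. CXCR4 with 0.131 ± 0.0732 RPKM, CCL22 with 0.0935 ± 0.0469 RPKM, CXCL8 with 0.0225 ± 0.0390 RPKM and CXCL5 with no read stood at the end of the order. In HT-29 controls the leading member was the receptor CXCR4 with 17.3 ± 1.97 RPKM. CXCL16 with 3.30 ± 0.380, CCL20 with 2.99 ± 1.02 and CXCL8 with 2.42 ± 0.575 RPKM followed, with overlapping spreads, and CXCL2 with 1.69 ± 0.587, CXCL1 with 1.59 ± 0.455 and CXCL3 with 1.21 ± 0.156 RPKM came after them. CCL22 with 0.0254 ± 0.0220 RPKM and ACKR3 with 0.0176 ± 0.0305 RPKM were near the floor, and CXCL5 had no read.

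In the fit over all 18 libraries, 7 of the 9 members tested differed between the controls of the lines, against 45.8% of all 17921 genes tested (21.6% higher and 24.2% lower in HT-29). Filtered line by line, ACKR3 passed the low-count filter in dCaco-2 alone and CXCL8 in HT-29 alone, so this count over the members that passed is a description. Higher in HT-29 were CXCR4, CXCL8, CXCL1, CCL20 and CXCL3, with log2 fold changes of 7.09 (SE 0.20), 6.57 (0.51), 1.89 (0.34), 1.68 (0.23) and 1.49 (0.27) and an FDR of at most 5.96e-06. Lower in HT-29 were ACKR3 with -8.15 (SE 0.32, FDR 7.73e-22) and CXCL16 with -2.25 (SE 0.09, FDR 2.26e-21). The 2 receptors of CXCL12 thus stood in opposite order in the 2 lines. ACKR3 had 208, 184 and 178 counts in dCaco-2 controls and 0, 2 and 0 in HT-29 controls, a ratio of 0.00288 (95% interval 0.000348 to 0.0105 for counting error). The CXCL8 ratio of 108 (36.7 to 526) rested on 3 reads in 1 of 3 dCaco-2 controls. For ACKR3 and CXCL8 the SEs above understate the error. Leaving out 1 library moved the log2 fold change of ACKR3 between -10.6 and -7.43 and that of CXCL8 between 6.06 and 9.76. CXCL2 with 0.74 (SE 0.28, FDR 0.0183) and CCL22 with -1.58 (SE 0.80, FDR 0.0689) were not called, but CCL22 was without dCaco-2 control replicate 2 (-1.89), with DESeq2 (-1.74) and with a replicate block (-2.43).

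**Figure D1:**
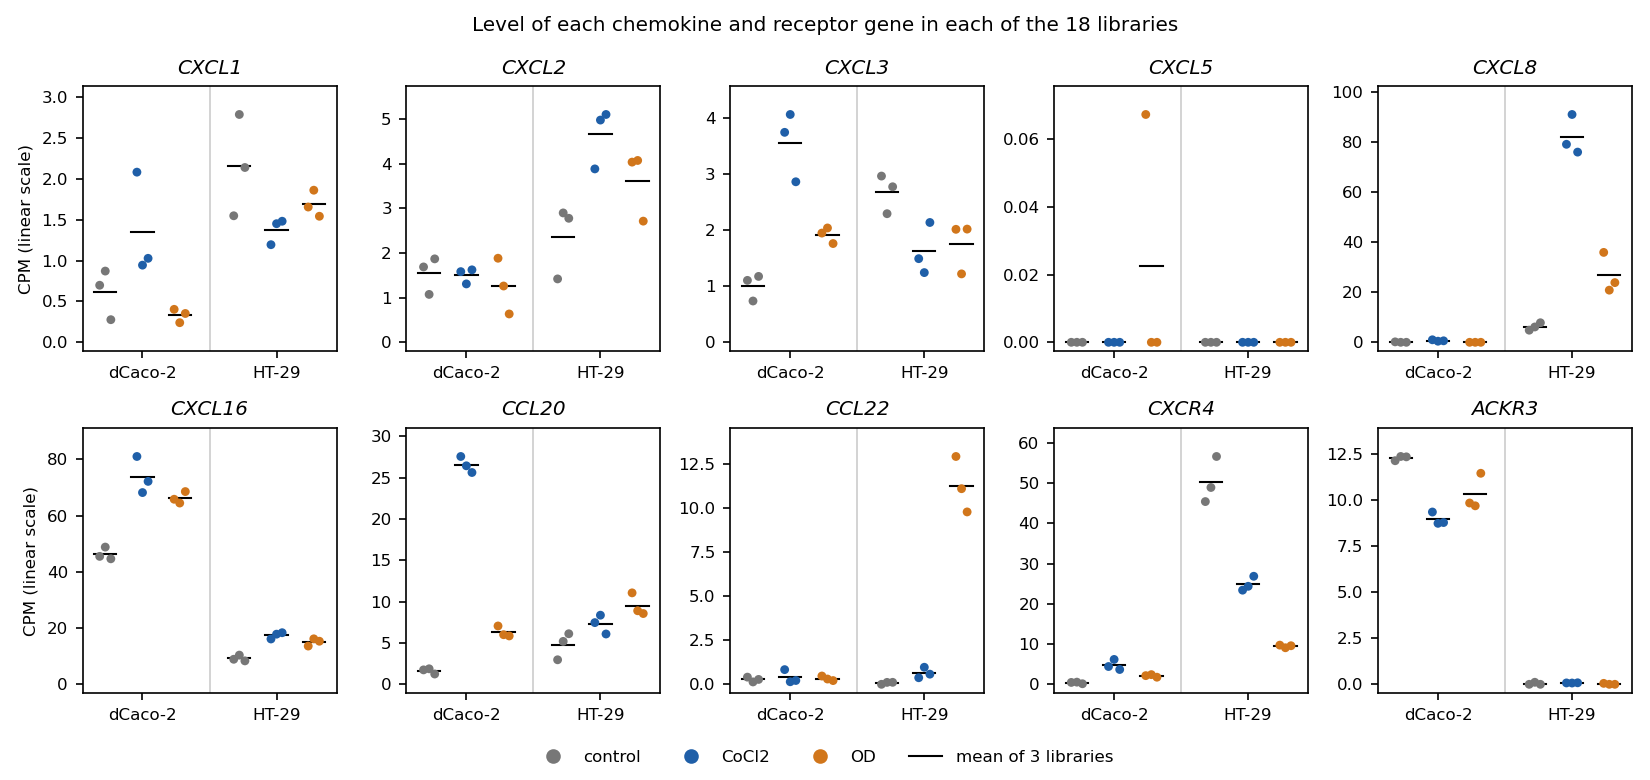
Level of the 10 genes in CPM (linear scale from 0, each panel with its own range), 1 point per library and a line at the mean of 3 libraries, for control (grey), CoCl2 (blue) and OD (orange) in dCaco-2 (left of the grey line) and HT-29 (right). CXCR4 stood at 0.380 CPM in dCaco-2 controls and at 4.76 CPM with CoCl2 and in HT-29 at 50.3 and 24.9 CPM, and CCL22 stood above 9 CPM in the 3 OD-treated HT-29 libraries alone.

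CXCR4 (chr2:136114349-136119177 in GRCh38, minus strand), the CXCL12 receptor, moved in opposite directions in the 2 lines. In dCaco-2 it had 8, 8 and 2 counts in the controls, 53, 85 and 68 with CoCl2 and 32, 40 and 25 with OD. Both treated groups lay above every control, and the CoCl2 group above the OD group. Starting at 0.380 ± 0.212 CPM, it rose to 4.76 ± 1.28 CPM after CoCl2 (log2 fold change 3.58, SE 0.35, FDR 3.66e-09) and to 2.11 ± 0.322 CPM with OD (2.43, SE 0.39, FDR 1.52e-05). In HT-29 it had 703, 894 and 1507 counts in the controls, 313, 352 and 326 with CoCl2 and 188, 156 and 180 with OD. On the CPM scale the 3 groups were fully separated, with 50.3 ± 5.73 in the controls, 24.9 ± 1.78 with CoCl2 and 9.46 ± 0.340 with OD. The log2 fold change was -1.03 with CoCl2 (SE 0.08, FDR 1.76e-12) and -2.42 with OD (SE 0.08, FDR 7.17e-19). The CoCl2 value in HT-29 lay next to the limit of 1 and missed it at -0.93 without control replicate 3 and at -0.98 without CoCl2 replicate 1. The difference between the lines was itself called, with -4.70 (SE 0.31, FDR 1.58e-14) for the CoCl2 response and -4.86 (SE 0.36, FDR 4.09e-13) for the OD response. Even after CoCl2, the dCaco-2 level of 1.64 ± 0.442 RPKM was below the OD-treated HT-29 level of 3.26 ± 0.117 RPKM, each scaled within its line.

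Of the 10 genes, 8 had at least 1 entry among the RefSeq promoter windows (GRCh38.p14), and CXCL16 and ACKR3 were not among them. In the 250 bases before the start, the HIF-binding core (ACGTG or GCGTG on either strand) was found in 2 of the 3 CXCR4 windows, in CCL20 and in CXCL5, and in 43.2% of all 35116 promoter windows. It is shown for CXCR4 and CCL20, the members called with both agents in dCaco-2, with the core in capitals and its reverse complement where the match lay on the other strand:
CXCR4, chr2:136118171-136118200, minus strand: gccgcgctcggaGCGTGtttttataaaagt
CCL20, chr2:227813770-227813799, plus strand: cccatgtggcaaCACGCcttctgtgtacat
The match ended 35 bases before the start in CXCR4 and 56 bases before it in CCL20. Such a match describes letters and no binding, and whether it bears on the response was not tested. CXCL3, which also had higher values with both agents in dCaco-2, had no such core in its window. CXCL5, with the core, was nearly unread, and CXCR4 was lower with both agents in HT-29.

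ACKR3 (chr2:236567787-236582354, plus strand), the scavenging receptor of CXCL12, had 112, 120 and 162 counts with CoCl2 and 146, 161 and 162 with OD in dCaco-2, beside the control counts given above. Its level was 12.3 ± 0.130 CPM in the controls, 8.94 ± 0.342 with CoCl2 and 10.3 ± 0.977 with OD, so that every treated library lay below every control. The log2 fold change of -0.46 with CoCl2 (SE 0.13, FDR 0.0037) was inside the fold limit, and that of -0.25 with OD (SE 0.13, FDR 0.103) did not pass the test. In HT-29 it had at most 2 counts in any library and was not tested.

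CCL20 (chr2:227805739-227817564, plus strand), the CCR6 ligand, had the largest rise among the 7 members tested in dCaco-2 with CoCl2. It had 30, 28 and 18 counts in the controls, 331, 364 and 474 with CoCl2 and 105, 100 and 83 with OD. The levels were 1.62 ± 0.333, 26.6 ± 0.976 and 6.31 ± 0.658 CPM, and the 3 groups did not overlap. The log2 fold change was 4.02 with CoCl2 (SE 0.16, FDR 2.47e-16) and 1.95 with OD (SE 0.19, FDR 6.86e-09), and CoCl2 exceeded OD by 2.07 (SE 0.13, FDR 8.2e-12). HT-29 cells started from a higher level and moved less. Their counts were 46, 95 and 163 in the controls, 100, 121 and 74 with CoCl2 and 214, 153 and 161 with OD. CoCl2 and control overlapped there at 7.31 ± 1.15 and 4.76 ± 1.62 CPM, and the OD group lay above both at 9.51 ± 1.36 CPM. Neither value passed the fold limit, with CoCl2 at 0.57 (SE 0.18, FDR 0.005) and OD at 0.94 (SE 0.16, FDR 1.1e-05), and scaling by library size alone turned the CoCl2 value to -0.06. The OD value reached 1.19 without control replicate 3 and 1.02 without OD replicate 3. The response differed between the lines by -3.55 for CoCl2 (SE 0.27, FDR 5.17e-13). The difference for OD, -1.01 (SE 0.29, FDR 0.00438), lay at the fold limit and was lost when any of 6 libraries was left out, at -0.76 without HT-29 control replicate 3 and at -0.87 to -0.98 without dCaco-2 control replicate 3, dCaco-2 OD replicate 1, HT-29 control replicate 2, or HT-29 OD replicate 2 or 3. It was likewise inside the limit with DESeq2 (-0.98) and with library size alone (-0.97).

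CXCL8 (chr4:73740519-73743716, plus strand), interleukin 8, had the largest fitted rise with CoCl2 among the members in HT-29. It had 75, 112 and 208 counts in the controls, 1059, 1316 and 923 with CoCl2 and 694, 358 and 448 with OD. The levels of 6.26 ± 1.49, 82.0 ± 7.93 and 26.9 ± 7.98 CPM did not overlap. The log2 fold change was 3.66 with CoCl2 (SE 0.14, FDR 1.49e-18) and 2.06 with OD (SE 0.16, FDR 8.93e-12), and CoCl2 exceeded OD by 1.61 (SE 0.12, FDR 1.78e-12). In CoCl2-treated HT-29 cells CXCL8 reached 31.7 ± 3.06 RPKM, the highest level of any member in any HT-29 group. In dCaco-2 the gene did not pass the filter on low counts, with 3, 0 and 0 counts in the controls, 12, 6 and 11 with CoCl2 and no count in the 3 OD libraries. The CoCl2 to control ratio there was 10.2 (95% interval 3.15 to 52.1 for counting error), with all control reads from 1 library. Against the 0 reads of the OD group, the ratio of CoCl2 to OD had a lower 95% limit of 7.61 for counting error. The difference between the lines could not be read for CoCl2, where it was 0.36 with an SE of 2.22. For OD it was 5.25 (SE 2.47, FDR 0.0878), a fitted value that leans on the dCaco-2 libraries at 0 and that was called without HT-29 OD replicate 1 (4.97), with DESeq2 (4.50) and with no filter on low counts (5.24).

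CXCL1 (chr4:73869393-73871308, plus strand), CXCL2 (chr4:74097040-74099196, minus strand) and CXCL3 (chr4:74036589-74038807, minus strand) are close paralogs that lie beside CXCL8 and CXCL5 (chr4:73995642-73998677, minus strand) on chromosome 4. Their coding sequences of 321 bases were identical at 93.5% of positions for CXCL1 and CXCL2, 94.4% for CXCL2 and CXCL3 and 90.7% for CXCL1 and CXCL3. Of the 75-base stretches that a read could cover, 2.5% of CXCL2, 2.3% of CXCL3 and 0.273% of CXCL1 also occurred in another gene, so a small part of their reads could not be assigned to 1 of them. CXCL8 shared 56.3% to 60.6% of aligned coding positions with these 3 genes and no such stretch with any other gene.

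CXCL3 rose and CXCL1 was just called in dCaco-2, while both had lower values in treated HT-29 cells. CXCL3 had 19, 11 and 17 counts in dCaco-2 controls, 45, 56 and 53 with CoCl2 and 29, 34 and 25 with OD, or 1.01 ± 0.236, 3.56 ± 0.623 and 1.92 ± 0.142 CPM, with no overlap between the groups. The log2 fold change was 1.80 with CoCl2 (SE 0.28, FDR 4.91e-06) and 0.92 with OD (SE 0.30, FDR 0.013), the second inside the fold limit. The OD value came to 1.00 without control replicate 1 and to 1.04 without control replicate 3. CXCL1 had 12, 13 and 4 counts in dCaco-2 controls, 25, 13 and 19 with CoCl2 and 6, 4 and 5 with OD. Its call with CoCl2 (1.07, SE 0.44, FDR 0.0375) rested on few reads and was lost without CoCl2 replicate 1 (0.67), control replicate 3 (0.75) or control replicate 1 (1.18, FDR 0.0674). It was also lost with DESeq2 (1.12, FDR 0.0623), with library size alone (0.75, FDR 0.14) and with no filter on low counts (1.08, FDR 0.0507). With OD it stood at -0.90 (SE 0.56, FDR 0.181), and CoCl2 exceeded OD by 1.97 (SE 0.50, FDR 0.00198). CXCL2 had 29, 16 and 27 counts in dCaco-2 controls, 19, 18 and 30 with CoCl2 and 28, 21 and 9 with OD. The 3 groups overlapped and the log2 fold changes were -0.03 with CoCl2 (95% interval -0.73 to 0.66) and -0.29 with OD (-0.99 to 0.42).

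In HT-29 the order of these paralogs was another. CXCL2 had 22, 53 and 74 counts in the controls, 52, 72 and 62 with CoCl2 and 78, 70 and 51 with OD, or 2.37 ± 0.821, 4.66 ± 0.671 and 3.61 ± 0.774 CPM. Its log2 fold change of 0.92 with CoCl2 (SE 0.21, FDR 0.000235) was next to the fold limit and exceeded it without control replicate 2 (1.04), control replicate 3 (1.07) or CoCl2 replicate 1 (1.05). With OD it was 0.56 (SE 0.21, FDR 0.0192). CXCL3 had 46, 42 and 74 counts in the controls, 20, 18 and 26 with CoCl2 and 39, 21 and 38 with OD. Its values were -0.74 with CoCl2 (SE 0.24, FDR 0.00573) and -0.60 with OD (SE 0.21, FDR 0.0154), with both treated groups below the controls. CXCL1 had 24, 51 and 57 counts in the controls, 16, 21 and 18 with CoCl2 and 32, 32 and 29 with OD, for -0.66 (SE 0.24, FDR 0.0151) and -0.37 (SE 0.22, FDR 0.129). None of these 6 values was called, but with library size alone the CoCl2 values of CXCL1 and CXCL3 were, at -1.29 and -1.37. The difference between the lines was called for CXCL3 with both agents, at -2.64 (SE 0.37, FDR 2.27e-07) with CoCl2 and at -1.54 (SE 0.37, FDR 0.00092) with OD. It was called for CXCL1 with CoCl2 (-1.83, SE 0.49, FDR 0.00202) and not with OD (0.52, SE 0.57), and for CXCL2 with neither (0.86, SE 0.41, and 0.83, SE 0.41). The CXCL2 values came to 1.05 without dCaco-2 control replicate 2 and to 1.20 without dCaco-2 OD replicate 1, and were then called. CXCL5 had 1 count in 1 OD-treated dCaco-2 library and none in the other 17, so it was not detectable at this depth.

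The letters GGAATTTCC (or GGAAATTCC on the other strand), the middle of a κB site, were found in the 250 bases before the start of CXCL1, CXCL2, CXCL3, CXCL5 and CXCL8 and in 0.413% of all promoter windows. They were searched for after the sequences had been seen. Values of the genes with this site ran from those of CXCL8 to the nearly unread CXCL5, and whether the site bears on them was not tested. The 5 sites are shown in capitals, and the search fixed the capitals to be the same:
CXCL1, chr4:73869305-73869334, plus strand: tggaactccgGGAATTTCCctggcccgggg
CXCL2, chr4:74099253-74099282, minus strand: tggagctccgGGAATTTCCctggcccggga
CXCL3, chr4:74038748-74038777, minus strand: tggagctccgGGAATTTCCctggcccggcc
CXCL5, chr4:73998748-73998777, minus strand: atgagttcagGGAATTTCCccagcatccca
CXCL8, chr4:73740468-73740497, plus strand: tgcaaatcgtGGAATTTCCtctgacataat
The sites began 77 or 78 bases before the start in CXCL1, CXCL2 and CXCL3, 90 bases before it in CXCL5 and 91 bases before it in CXCL8. The fuller κB consensus was found in the windows of CXCL1, CXCL2, CXCL3 and CXCL5 at the same place, in CCL20 and in CCL22, and in 9.96% of all windows. As above, these are matches of letters.

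CCL22 (chr16:57358783-57366189, plus strand), the CCR4 ligand, had the largest change of any member, in OD-treated HT-29 cells. It had 0, 2 and 3 counts in the controls, 5, 14 and 7 with CoCl2 and 250, 191 and 184 with OD. Starting at 0.0740 ± 0.0641 CPM, it reached 0.639 ± 0.302 CPM in CoCl2-treated cells (log2 fold change 2.87, SE 0.62, FDR 0.000151) and 11.3 ± 1.58 CPM with OD (6.97, SE 0.30, FDR 3.95e-17). Summed over the 3 libraries the OD to control ratio was 137 (95% interval 58.2 to 422) and the CoCl2 to control ratio 7.85 (2.97 to 26.2), for counting error only. Here OD exceeded CoCl2, with -4.11 for CoCl2 against OD (SE 0.23, FDR 5.45e-15), the reverse of the order for CXCL8. In dCaco-2 the gene stayed under the filter in all 3 groups, with 7, 2 and 4 counts in the controls, 10, 2 and 4 with CoCl2 and 7, 5 and 3 with OD. The difference between the lines was 6.73 for OD (SE 0.95, FDR 4.47e-07). For CoCl2 it was 2.39 (SE 0.96, FDR 0.0378), and this call was lost when any of 6 libraries was left out, with values of 1.93 to 2.39 without dCaco-2 control replicate 1 or 3, dCaco-2 CoCl2 replicate 2 or 3, HT-29 control replicate 1, or HT-29 CoCl2 replicate 2, and with library size alone (2.20, FDR 0.0559). CCL22 is best known from macrophages and dendritic cells, and whether other cells contributed to its reads was not tested. In the same OD libraries 2 of the 12 leukocyte markers exceeded a mean of 1 CPM. ITGAM rose by 2.84 (SE 0.12, FDR 1.55e-17), and CD14, at 1.73 CPM in the controls and 2.29 CPM with OD, was not called. PTPRC, MS4A1, CD163 and FCGR3A were at 0, and of these MS4A1, CD163 and FCGR3A were also at 0 in the controls.

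CXCL16 (chr17:4733533-4739928, minus strand), the membrane-bound CXCR6 ligand, showed the most even response of the members. It had 782, 728 and 645 counts in dCaco-2 controls, 973, 939 and 1335 with CoCl2 and 979, 1074 and 972 with OD, or 46.3 ± 2.20, 73.8 ± 6.58 and 66.3 ± 2.08 CPM. In HT-29 it had 138, 190 and 222 counts in the controls, 216, 258 and 223 with CoCl2 and 263, 278 and 288 with OD, or 9.21 ± 1.06, 17.4 ± 1.16 and 15.04 ± 1.31 CPM. All treated libraries lay above the controls of their line. The log2 fold changes were 0.67 (SE 0.08) and 0.52 (SE 0.08) with CoCl2 and OD in dCaco-2 and 0.93 (SE 0.10) and 0.71 (SE 0.10) in HT-29, each with an FDR of at most 1.54e-05 and each inside the fold limit, and CoCl2 in HT-29 came to 1.02 without control replicate 2. The lines differed by 0.15 for CoCl2 (95% interval -0.10 to 0.40) and 0.18 for OD (-0.07 to 0.43), neither of them called. The gene overlaps MED11 and ZMYND15 on the other strand, and without a stated use of strand in the counting their reads cannot be told apart.

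**Figure D2:**
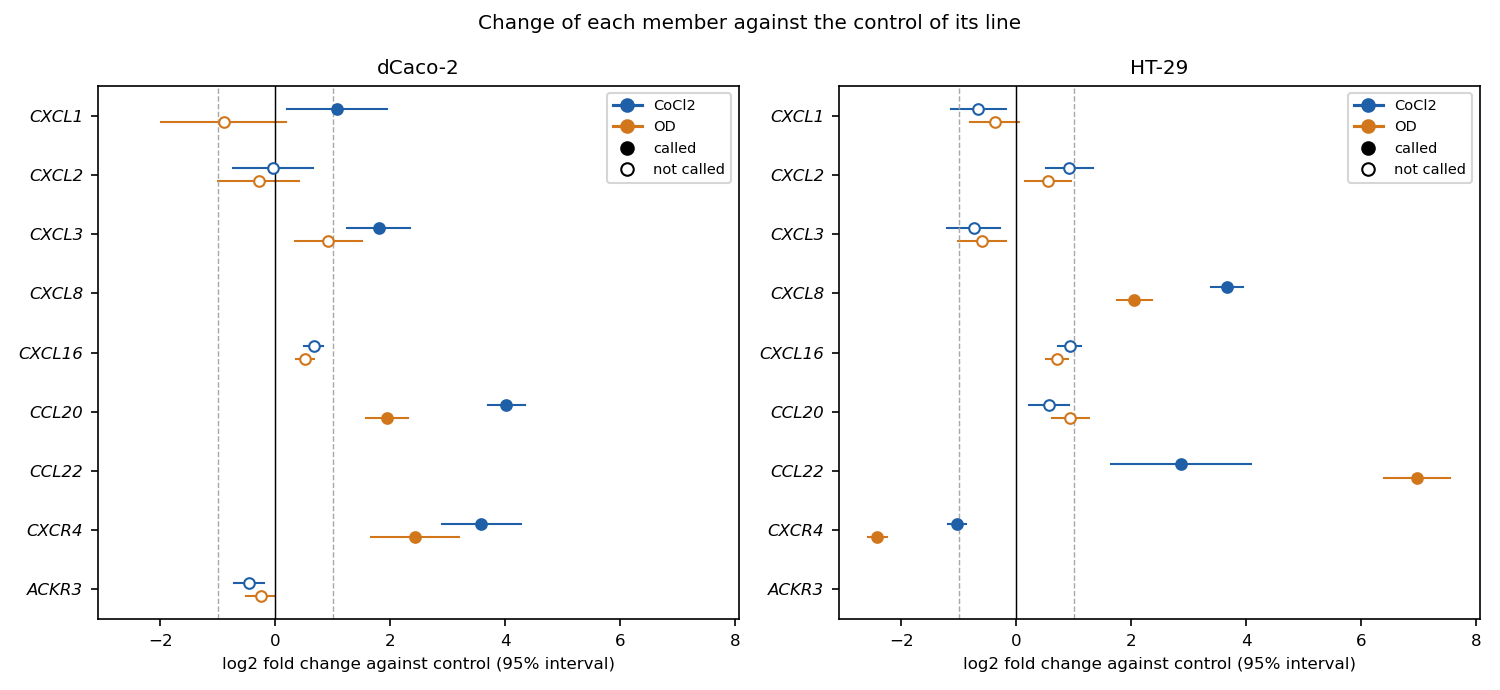
Log2 fold change of each member against the control of its line, for CoCl2 (blue) and OD (orange). Bars are 95% intervals derived from the F test, and those of CCL22 can be narrower than its counting error. Filled points were called, dashed lines mark the fold limit, and a gene without a point did not pass the filter in that line. CXCR4 stands at 3.58 and 2.43 in dCaco-2 and at -1.03 and -2.42 in HT-29.

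Counted over the family, 4 of the 7 members tested were called with CoCl2 in dCaco-2 (CCL20, CXCR4, CXCL3 and CXCL1), all higher, against 23.4% of 16034 genes tested (9.13% higher, 14.2% lower). With OD, 2 of 7 were called (CXCR4 and CCL20), both higher, against 11.7% (4.43% higher, 7.27% lower). The median log2 fold change of the members tested was 1.07 with CoCl2 and 0.52 with OD, beside medians of -0.03 and -0.02 over all genes tested. In HT-29, 3 of 8 members were called with each agent, namely CXCL8 and CCL22 as higher and CXCR4 as lower. CCL22 passed the low-count filter there through its OD libraries alone, and in dCaco-2 CXCR4 passed through both treated groups and CXCL1 through the 3 CoCl2 libraries and 2 controls, so these counts over the members that passed are a description. The share of all 15812 genes called was 41.3% for CoCl2 (17.4% higher, 23.9% lower) and 17.1% for OD (9.5% higher, 7.57% lower), so that the count for CoCl2 in HT-29 was near that of genes at large. The members' medians were 0.75 and 0.64, beside -0.03 and 0.01 over all genes tested, and with library size alone the median for CoCl2 was 0.12, with 2 members called higher and 3 lower. The genes that passed the filter differed, since CXCL8 and CCL22 passed in HT-29 alone and ACKR3 in dCaco-2 alone, and CXCL5 passed in neither.

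Set against each other in dCaco-2, CoCl2 exceeded OD for CCL20, CXCL1 and CXCR4, 3 of 7 members, against 11.7% of genes tested (5.21% higher, 6.44% lower with CoCl2). The CXCR4 difference of 1.16 (SE 0.26, FDR 0.000795) fell to 0.92 without CoCl2 replicate 2 and to 0.99 with library size alone, and that of CXCL3, 0.87 (SE 0.25, FDR 0.00596), rose to 1.02 without CoCl2 replicate 3. For CXCL16 the difference was 0.15 (95% interval -0.01 to 0.31), for CXCL2 0.25 (-0.46 to 0.97) and for ACKR3 -0.21 (-0.47 to 0.05). In HT-29, 3 of 8 were called, against 29.9% (10.8% higher, 19.2% lower). CXCL8 and CXCR4 were higher and CCL22 lower with CoCl2, the CXCR4 value being 1.39 (SE 0.10, FDR 5.73e-13), and 0.89 when libraries were scaled by size alone. The remaining 5 differences in HT-29 ran from -0.37 for CCL20 (95% interval -0.69 to -0.06) to 0.37 for CXCL2 (-0.02 to 0.76), with CXCL1 at -0.29 (-0.80 to 0.22), CXCL3 at -0.14 (-0.65 to 0.36) and CXCL16 at 0.22 (0.03 to 0.40).

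The test of the difference between the lines was passed by 5 of 9 members for CoCl2, against 21.6% of 17921 genes (7.79% higher and 13.8% lower in HT-29). CXCR4, CCL20, CXCL3 and CXCL1 had lower responses in HT-29 and CCL22 a higher one. For OD it was passed by 4 of 9, against 15.2% (8.96% higher, 6.24% lower), with CXCR4, CXCL3 and CCL20 lower and CCL22 higher. Genes at large had medians of -0.13 (CoCl2) and 0.01 (OD). Filtered line by line, CCL22 passed in HT-29 alone, through its OD libraries, so the counts of members here are a description. For ACKR3, at most 2 counts a library in HT-29 left the differences of 1.38 (SE 1.13) and -0.43 (SE 1.12) without content.

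**Figure D3:**
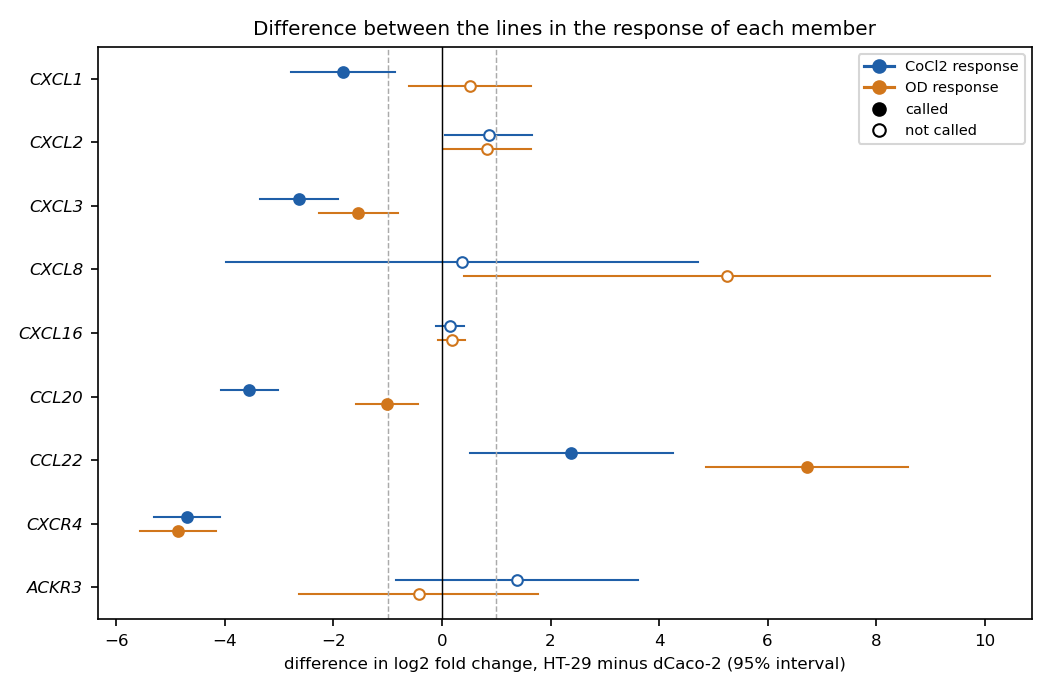
Difference between the lines in the log2 fold change against control (HT-29 minus dCaco-2), for the CoCl2 (blue) and OD (orange) responses of 9 members. Bars are 95% intervals derived from the F test. Filled points were called. CXCR4 lies at -4.70 and -4.86, CCL22 at 2.39 and 6.73, CXCL16 at 0.15 and 0.18, and the wide bars of CXCL8 and ACKR3 come from groups with counts at or near 0.

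Other chemokine ligands were mostly silent. Of 40 listed, 38 were in the table, and 7 passed the filter in dCaco-2 and 8 in HT-29. In dCaco-2, CoCl2 raised 3 of 7 and lowered 1, against 9.13% and 14.2% of all genes tested. PPBP, another CXCR2 ligand, rose from 0.692 to 0.939 CPM in the controls to 5.45 to 6.17 CPM (log2 fold change 2.88, SE 0.26, FDR 8.87e-10) and CCL28, a mucosal chemokine that attracts plasma cells, from 17.8 to 18.5 CPM to 66.8 to 72.2 CPM (1.93, SE 0.10, FDR 2.09e-14). CCL26, an eotaxin, had 1, 0 and 0 counts in the controls and 20, 23 and 27 with CoCl2, a ratio of 73.6 (95% interval 12.8 to 2948 for counting error). CX3CL1, which like CXCL16 is membrane-bound, was lowered from 21, 17 and 13 counts to 2, 3 and 0 (-3.17, SE 0.73, FDR 0.000524). OD raised PPBP (1.90) and CCL28 (1.20) and lowered CX3CL1 (-1.90) there, 3 of 7 against 11.7% of all genes. In HT-29, OD raised 4 of 8, against 9.5% of all genes. These were the CXCR3 ligands CXCL10 (3.85, SE 0.21, FDR 7.22e-15) and CXCL11 (2.09, SE 0.18, FDR 9.39e-11), CCL5 (2.15, SE 0.22, FDR 2.33e-09) and CX3CL1 (1.63, SE 0.15, FDR 3.18e-10), and CCL14 was lowered (-1.23, SE 0.27, FDR 0.000253). CXCL10 had 8, 17 and 20 counts in HT-29 controls, 28, 62 and 27 with CoCl2 and 195, 203 and 201 with OD, the same order as CCL22. With CoCl2, CXCL10 rose by 1.96 (SE 0.29, FDR 6.08e-07) and CXCL17 (-1.71) and CCL14 (-1.05) were lowered, 3 of 8, a share near the 41.3% of all genes called. All 4 ligands that OD raised were lower with CoCl2 than with OD. In dCaco-2, CCL26 passed the low-count filter through its CoCl2 libraries alone and CX3CL1 through its controls alone. In HT-29, CXCL17 passed through the 3 controls and 1 OD library. The counts over the ligands that passed are therefore a description.

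Of 21 other chemokine receptors, 6 passed the filter in dCaco-2 and 4 in HT-29, and edgeR and DESeq2 called 0 of them higher than control in any of the 4 comparisons (9.13%, 4.43%, 17.4% and 9.5% of all genes were), with 1, 1, 1 and 0 higher at an unadjusted p under 0.05. CCR1, a receptor of CCL3 and CCL5, went from 7.38 to 7.86 CPM in dCaco-2 controls to 2.17 to 3.12 CPM with CoCl2 (-1.49, SE 0.19, FDR 2.95e-07) and to 2.82 to 3.83 CPM with OD (-1.21, SE 0.18, FDR 7.7e-06). OD also lowered CCR3 (-1.85, SE 0.56, FDR 0.0076) and CCR10 (-1.18, SE 0.46, FDR 0.0354) in dCaco-2. In HT-29, CoCl2 lowered ACKR4, an atypical receptor of CCL19 and CCL21, from 3.94 to 4.27 CPM to 0.247 to 0.373 CPM (-3.62, SE 0.27, FDR 1.56e-12), and CXCR3 (-1.97, SE 0.61, FDR 0.00429). With OD edgeR and DESeq2 both called 0 of 4, and ACKR4 at -0.72 (SE 0.16, FDR 0.000256) was the 1 gene with an unadjusted p under 0.05. Some receptors that were not called had higher values with CoCl2. CXCR6 went from 1.34 to 1.87 CPM in dCaco-2 controls to 2.91 to 3.42 CPM. Below the filter, CCR3 had 0 counts in HT-29 controls and 6 to 9 a library with CoCl2. ACKR4 had 2 to 8 counts in dCaco-2 controls and 8 to 24 with CoCl2, also below the filter. In dCaco-2, CCR3 passed the filter through 3 controls and 2 CoCl2 libraries, and CCR10 through 3 controls and 1 library of each treated group. In HT-29, ACKR4 passed through its controls and OD libraries alone, and CXCR3 through 2 controls and 1 OD library. The counts over the receptors that passed are therefore a description.

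Among 25 NF-κB factors and feedback genes, most of those called were higher. In dCaco-2, 11 of 21 tested were called higher and 1 lower with CoCl2, and 7 higher and 1 lower with OD, with medians of 1.17 and 0.63, while 9.13% and 4.43% of all genes tested were called higher. IER3 (1.90, SE 0.23) and BIRC3 (1.79, SE 0.19) were highest with CoCl2, and the interleukin gene IL1A (1.46, SE 0.54, FDR 0.0274) and RELB (1.33, SE 0.19) with OD. TRAF1 was lower with both, at -1.68 and -1.28. In HT-29, 15 of 24 were called higher and 2 lower with CoCl2, and 12 higher and 0 lower with OD (DESeq2 also 0 lower, and 2 lower at an unadjusted p under 0.05), with medians of 1.24 and 1.12, while 17.4% and 9.5% of all genes were called higher. RELB (2.53, SE 0.07) and TNIP1 (2.29, SE 0.05) were highest with CoCl2, TRAF1 (-2.25) and IL1B (-2.02) lowest, and ICAM1 (3.55, SE 0.09) and TNF (3.06, SE 0.47) highest with OD. IER3 stood at -0.73 and -0.65 in HT-29, inside the fold limit. With library size alone the CoCl2 counts became 6 higher and 2 lower in dCaco-2 and 8 higher and 4 lower in HT-29. TNF and LTB passed the low-count filter in HT-29 through their 3 OD libraries alone. IL1B passed there through 1 control and 2 OD libraries, and IL1A in dCaco-2 through 1 CoCl2 and 2 OD libraries. The counts over the genes of this list that passed are therefore a description.

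Of 16 genes that hold, cleave or transmit chemokine signals, 14 were tested in dCaco-2 and 15 in HT-29. With CoCl2 and OD, 1 and 0 of them were called in dCaco-2, against 23.4% and 11.7% of all genes, and 3 and 3 in HT-29, against 41.3% and 17.1%, the last being near the share of genes at large. SDC1, a syndecan that binds chemokines at the cell surface, was lower with CoCl2 in dCaco-2 (-1.21, SE 0.11, FDR 5.49e-10). With OD edgeR and DESeq2 called 0 of 14, and 8 were higher and 4 lower at an unadjusted p under 0.05. ADAM17, a protease that can release membrane-bound ligands, was higher in HT-29 with CoCl2 (1.68, SE 0.06, FDR 2.54e-20) and OD (1.25, SE 0.05, FDR 7.26e-17), and the syndecan SDC4 with OD (1.34, SE 0.07, FDR 5.08e-15). GNAI1, an inhibitory G protein subunit that chemokine receptors couple to, was lower with CoCl2 (-1.52, SE 0.07) and OD (-1.08, SE 0.06), and the receptor kinase GRK6 with CoCl2 (-1.21, SE 0.07). With library size alone 7 rather than 2 of these genes were called lower with CoCl2 in HT-29.

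**Figure D4:**
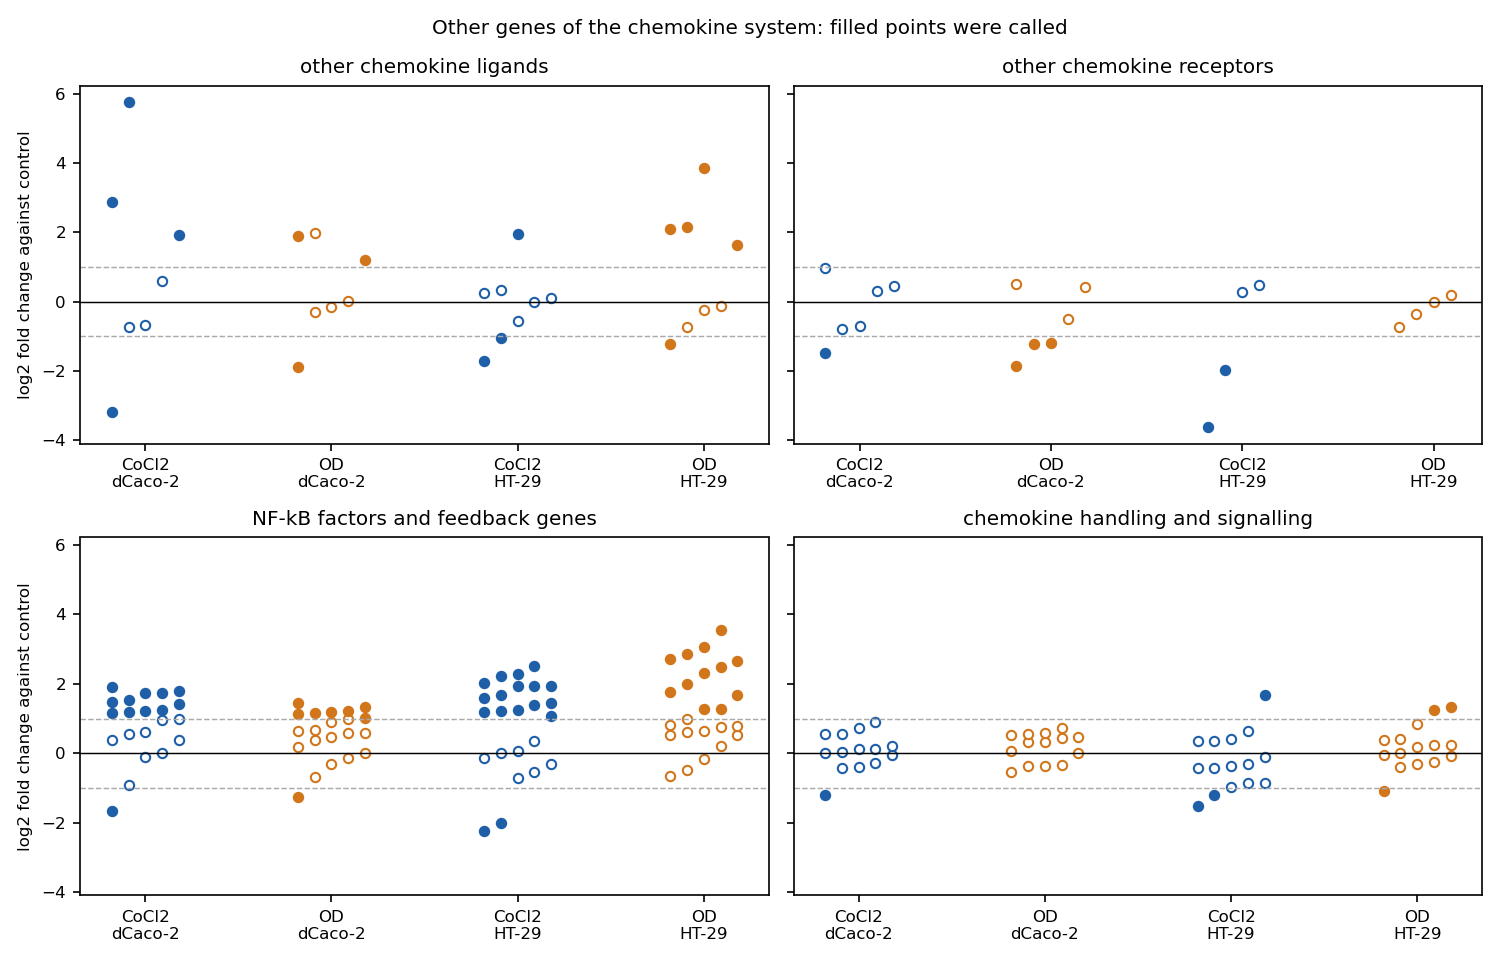
Log2 fold change against control of every gene tested in 4 lists of the chemokine system, for CoCl2 (blue) and OD (orange) in dCaco-2 and HT-29, with called genes filled and dashed lines at the fold limit. In the NF-κB list 11, 7, 15 and 12 genes were called higher in the 4 comparisons, while among the other receptors none was. These counts cover the genes that passed the low-count filter and are a description.

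The genes whose log2 CPM followed a member most closely over the 9 libraries of a line were named with no test, since the libraries of a line fall into 3 treatment groups that set most of the correlation. For CXCR4 in dCaco-2 these were TEP1 (Pearson r = 0.987), TLCD3A (0.986) and AC055811.1 (0.985) among 16033 genes compared. For CXCR4 in HT-29 they were RRN3 (0.998), RBM12 (0.996) and GSPT1 (0.995) among 15811 genes. For CXCL8 in HT-29 they were TWF2, CLDN12 and HSPA13 (each 0.997).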

How the data were processed

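For 18 mRNA libraries the authors deposited counts of reads per gene, not normalized, and a table of log2 values for the same libraries, the log2 of RPKM plus 1 where a gene had values in a line. That table listed 8 of the 10 members, without CCL22 and CXCL5, and held CXCL1, CXCL2, CXCL8 and CXCR4 at 0 in all dCaco-2 libraries and ACKR3 at 0 in all HT-29 libraries, although several of these had reads in the count table. Per the labels and the study's methods, reads were single-end 75-base reads from a stranded mRNA kit with 3 biological replicates per condition, checked with FastQC 0.11.9, trimmed with cutadapt 2.10, aligned with STAR 2.7.5b to GRCh38.p13 and counted on a GENCODE annotation. The submitters' processing notes also name edgeR 3.30.3. The study's methods describe Caco-2 and not HT-29, whose design was taken from the labels. The counting tool and its use of strand are not given in the sources used here. The 18 miRNA libraries were not used here.

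Counts were tested with edgeR 4.0.16 (R 4.3.3), each line fitted over its 9 libraries with TMM scaling, filterByExpr and 1 coefficient per group, and differences between the lines over all 18. A two-sided quasi-likelihood F test was used, with Benjamini-Hochberg adjustment over all genes tested. The SE was taken as the absolute log2 fold change over the square root of its F statistic. The 95% intervals of log2 fold changes are normal intervals from this SE. Where a group had counts near 0, both can be narrower than counting error. Median SEs of a log2 fold change against control were 0.0855 to 0.127. Calls needed an FDR under 0.05 and an absolute log2 fold change over 1. RPKM values here used exon lengths of GENCODE v44, and intervals of count ratios were exact and cover counting error only. Alternatives were DESeq2 1.42.0, library size alone, no filter, no fold limit, a replicate block, each library left out, and limma 3.58.1 on the deposited log2 table with a pseudocount of 1 or 0.1. Scripts were tested on simulated data.

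All 10 members are named in each comparison. Of the other lists, genes called in at least 1 of the 4 comparisons with control may be named, with values for the 2 highest and 2 lowest of a list and comparison, and likeness was given for CXCL8 and CXCR4 as the 3 highest r. The further list genes given with values were chosen after their values were seen, among them CXCR6, which was not called in any of these 4 comparisons. Members and lists were chosen with earlier results of these data known.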

Additional observations from a re-analysis of the deposited data

Results flagged for a closer look

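The response to treatment was tested for a difference between the lines (HT-29 minus dCaco-2, interaction term in edgeR over 18 libraries), and 9 member responses passed. Of all 17921 genes tested, 21.6% passed for CoCl2 and 15.2% for OD. For CoCl2 these were CXCR4 with a difference in log2 fold change of -4.70, CCL20 with -3.55, CXCL3 with -2.64, CXCL1 with -1.83 and CCL22 with 2.39. For OD they were CCL22 with 6.73, CXCR4 with -4.86, CXCL3 with -1.54 and CCL20 with -1.01. The calls of CCL22 for CoCl2 and of CCL20 for OD were fragile. Each was lost when any of 6 libraries was left out and with library size alone. CXCR4 was called in opposite directions in the 2 lines with both agents, and all 6 treated libraries of each line moved the same way against all 3 of its controls. CXCL3 was called higher with CoCl2 in dCaco-2 and had values of -0.74 and -0.60 in HT-29, inside the fold limit. Line, culture medium and differentiation cannot be told apart in these differences.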

How the results depend on the processing

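Over 939 alternative values of 72 member log2 fold changes, 878 kept their direction and side of the thresholds, 27 no longer passed, 20 newly passed and 14 changed sign. The number of members called changed by over 1.5 times in these cases. With no limit on the fold change it was 4 of 7 for OD in dCaco-2, where 8084 of 16034 genes tested were called. Without that limit in HT-29 it was 8 of 8 for CoCl2 (13097 of 15812 genes), 7 of 8 for OD (10876 of 15812) and 5 of 8 for CoCl2 against OD (12286 of 15812). With limma on the deposited log2 table it was 1 or 2 (pseudocount 1 or 0.1) for CoCl2 in dCaco-2, and 1 with either pseudocount for OD and for CoCl2 against OD in dCaco-2. That table could test only 4 members in dCaco-2, where it holds CXCR4 and CXCL1 at 0 in every library, and 7 in HT-29, so calls of those genes could not be made there, and CXCL3 with CoCl2 (0.82 with a pseudocount of 1) was the 1 tested member that lost its call. With library size alone it was 5 for CoCl2 in HT-29. With 1 library left out it ran from 3 to 4 for CoCl2 and 2 to 3 for OD in dCaco-2, from 2 to 4 for CoCl2 against OD there, and in HT-29 from 3 to 5 for CoCl2, reaching 5 without control replicate 2, from 3 to 4 for OD, and stayed at 3 for CoCl2 against OD. The line differences ran from 4 to 6 and from 3 to 5, and the control comparison from 7 to 8.

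Signs changed with library size alone for CCL20 with CoCl2 in HT-29 (-0.063), CXCL16 (-0.28) and CXCL2 (-0.13) for CoCl2 against OD in HT-29, CXCL16 for CoCl2 against OD in dCaco-2 (-0.014) and CXCL16 for the line difference with CoCl2 (-0.053). With 1 library left out, CXCL2 in dCaco-2 ran from -0.23 to 0.12 for CoCl2, from -0.67 to 0.022 for OD and from -0.052 to 0.65 for CoCl2 against OD, CXCL3 for CoCl2 against OD in HT-29 from -0.37 to 0.032, CXCL8 for the line difference with CoCl2 from -2.83 to 0.87 and ACKR3 for that with OD from -2.20 to 2.02. None of these was called. For CXCL8 the line difference with OD was called with DESeq2 (4.50) and with no filter (5.24).

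Without the fold limit the genes called rose from 3747 to 10370, 1876 to 8084 and 1868 to 7957 for CoCl2, OD and CoCl2 against OD in dCaco-2, from 6524 to 13097, 2699 to 10876 and 4734 to 12286 in HT-29, from 3875 to 8916 and 2724 to 7682 for the line differences and from 8202 to 14175 between controls. With limma they were 1098 or 2116, 381 or 878 and 341 or 848 in dCaco-2 and 2520 or 3893, 744 or 1295 and 1455 or 2599 in HT-29, over fewer genes listed.

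Same-numbered libraries did not deviate together (correlations of -0.055 to 0.068 in dCaco-2 and -0.037 to 0.025 in HT-29), so replicate numbers were taken as names. A replicate block changed the call of 1 of 72 member log2 fold changes, CCL22 between controls (-2.43). Depth limited CXCL5, CXCL8 and CCL22 in dCaco-2 and ACKR3 in HT-29. The causes of these changes were not tested.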
